A study of Mus musculus with 6 samples.

Results

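Prl3a1, Vmn2r79, Elobl and Tnni3k are mouse genes, 3 of which are known from tissues other than the artery wall: Prl3a1 from the placenta, Vmn2r79 from the vomeronasal organ of the nose and Tnni3k from heart muscle. The 4 genes were taken by symbol out of 7384 listed genes, and were chosen by their normalised read counts in siSirt6 against Control, in which all 4 stood high among the rises. That change is therefore described here without a test. RNA sequencing compared vascular smooth muscle cells isolated and cultured from mouse aorta in 2 groups of 3 libraries each. The siSirt6 cultures received a small interfering RNA against Sirt6, a chromatin-bound deacylase of the sirtuin family, and the Control cultures are called only that, and both were kept for 48 h. What the Control cultures received, the mouse strain, age and sex, the passage, and whether libraries came from separate animals or cultures are not given in the sources used here, so the p-values below measure only the spread between these libraries, which may be technical.

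Prl3a1 belongs to the prolactin family, secreted hormones that in rodents expanded into a cluster of genes used mainly by trophoblast cells of the placenta. Vmn2r79 belongs to the V2R vomeronasal receptors, G protein-coupled pheromone receptors of which a sensory neuron of the vomeronasal organ normally uses very few. Elobl is a relative of elongin B (Elob), the ubiquitin-like subunit that pairs with elongin C in the elongin complex and in cullin ubiquitin ligases. Tnni3k is a kinase of heart muscle that carries ankyrin repeats and binds cardiac troponin I.

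Elobl has a near copy, the pseudogene 2210409E12Rik, close beside it, and a relative, Elob, on another chromosome. The sequences below show how alike they are. Each line is the same stretch of 102 bases of elongin B-like sequence (bases 196 to 297 of the Elobl coding sequence, GRCm38), with capitals for the bases that differ from Elobl. Elobl itself is read from the minus strand within chr11:88964939-88965040. The pseudogene 2210409E12Rik is read from the plus strand within chr11:88972854-88972955, and Elob from the minus strand within chr17:23824927-23827516, across introns. The pseudogene differed from Elobl at 8 of the 102 bases and Elob at 28.
Elobl: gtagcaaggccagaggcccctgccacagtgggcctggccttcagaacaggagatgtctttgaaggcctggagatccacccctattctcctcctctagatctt
2210409E12Rik: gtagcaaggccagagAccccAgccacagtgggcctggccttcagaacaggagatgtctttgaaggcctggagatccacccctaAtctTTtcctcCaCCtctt
Elob: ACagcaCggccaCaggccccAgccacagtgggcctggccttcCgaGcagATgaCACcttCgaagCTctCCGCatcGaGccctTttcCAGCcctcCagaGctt

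The sequence just upstream of 3 of the genes is given next, because these windows show how poor it is in CpG and which motifs it holds. They come from the RefSeq promoter table for GRCm38.p6, which held all 4 genes, and are printed 5′ to 3′ along the gene only as far as no annotated exon begins. Capitals mark a match to a motif searched on both strands. The Prl3a1 window is chr13:27259239-27259435 on the plus strand, with an AP-1 site in capitals. The Elobl window is chr11:88966932-88967181 on the minus strand, with no match. The Tnni3k window is chr3:155055408-155055657 on the minus strand, with a TEAD site and then the first part of a MEF2 site in capitals. The MEF2 site runs past the printed end. The Vmn2r79 window lies within an annotated exon and is not printed.
Prl3a1: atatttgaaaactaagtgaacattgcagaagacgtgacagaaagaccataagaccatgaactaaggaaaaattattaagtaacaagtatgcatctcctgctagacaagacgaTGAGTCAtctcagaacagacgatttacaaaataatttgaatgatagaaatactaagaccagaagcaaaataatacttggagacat
Elobl: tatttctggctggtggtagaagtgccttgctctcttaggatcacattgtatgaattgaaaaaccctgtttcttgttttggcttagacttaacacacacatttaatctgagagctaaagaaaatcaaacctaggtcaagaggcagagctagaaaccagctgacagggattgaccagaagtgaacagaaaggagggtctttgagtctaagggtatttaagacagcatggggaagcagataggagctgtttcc
Tnni3k: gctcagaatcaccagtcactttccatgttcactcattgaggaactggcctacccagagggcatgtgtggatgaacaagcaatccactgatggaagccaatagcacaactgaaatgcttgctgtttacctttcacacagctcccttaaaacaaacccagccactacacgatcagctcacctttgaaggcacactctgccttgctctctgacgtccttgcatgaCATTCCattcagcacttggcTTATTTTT

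Each full window ran from 250 bases before to 50 bases after the RefSeq start. It held 4 CpG in Prl3a1, 1 in Vmn2r79, 0 in Elobl and 3 in Tnni3k, against a median of 7 over the 32851 windows of the table. As few CpG or fewer were found in 38.0%, 14.1%, 5.43% and 31.4% of all windows, in the same order, so all 4 genes lay below the median and Elobl among the poorest. The Prl3a1 window held the TATA box TATAAA from position -29 counted from the start, past the printed part, a motif found in 13.6% of windows. Its AP-1 match TGANTCA began at position -138 and is found in 7.81% of windows. In Tnni3k the TEAD motif GGAATG, on the minus strand at position -28, is found in 14.7% of windows, and the MEF2 site in 3.19%. The STAT motif TTCNNNGAA occurred in Vmn2r79 at position -88 and in Elobl at the start itself, and in 8.30% of windows. No motif was present in all 4 windows, and neither the E-box motif CACGTG nor the GATA motif GATAAG, the CRE motif TGACGTCA, the CArG box or the NF-kB site was found in any of them. Such a match is a description of letters only.

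The deposited values are reads divided by a factor per library and are called normalised read counts. The listed genes took between 14458847 and 15526399 reads per library. The knockdown target Sirt6 was at 251.7, 257.0 and 270.4 in Control and lower, at 44.5, 59.8 and 63.5, in siSirt6, which is -2.21 on the log2 scale (SE 0.141). The tables hold almost only genes that differ: of 7179 genes tested with limma, 99.8% passed an adjusted p of 0.05, 50.5% higher and 49.3% lower in siSirt6, and the median log2 fold change was 0.08. Counts over gene groups are read against these shares. Values are log2 fold changes of log2(value + 1) with their standard errors (SE), and folds are ratios of group means.

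Prl3a1 (ENSMUSG00000038883) lies on chromosome 13 at chr13:27259436-27276667 (GRCm38, plus strand) and has 5 exons in its longest transcript. Its normalised read counts were 44.9, 57.4 and 57.0 in Control and 271.9, 295.9 and 288.3 in siSirt6. All 3 siSirt6 libraries lay well above all 3 Control libraries. The mean went from 53.1 ± 7.12 to 285.4 ± 12.2 (SD, n = 3), 5.37-fold, with a log2 fold change of 2.41 (SE 0.135).

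Vmn2r79 (ENSMUSG00000090362) lies on chromosome 7 at chr7:86996115-87044941 (plus strand), where its 6 annotated transcripts cover 14279 bases of exon, including models that retain an intron. It stood at 37.1, 38.9 and 31.9 in Control and at 214.6, 175.2 and 184.2 in siSirt6. The groups did not overlap, and the first siSirt6 library was the highest. The mean went from 36.0 ± 3.67 to 191.3 ± 20.6 (SD, n = 3), 5.32-fold, with a log2 fold change of 2.38 (SE 0.160).

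Elobl (ENSMUSG00000057534) is a gene of 2 exons on chromosome 11 at chr11:88964658-88966931 (minus strand). Its values were 253.7, 302.8 and 262.7 in Control and 1351, 1225 and 1271 in siSirt6. It took the most reads of the 4 in each library, and its groups were far apart. The mean went from 273.1 ± 26.1 to 1282 ± 63.8 (SD, n = 3), 4.69-fold, with a log2 fold change of 2.23 (SE 0.067).

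Tnni3k (ENSMUSG00000040086) lies on chromosome 3 at chr3:154786291-155055407 (minus strand), a span with 25 exons in the longest transcript. Its values were 31.2, 38.9 and 38.6 in Control and 179.0, 152.6 and 210.2 in siSirt6. Relative to its mean the siSirt6 group spread most widely here, yet the lowest of them was far above the highest Control library. The mean went from 36.3 ± 4.37 to 180.6 ± 28.9 (SD, n = 3), 4.98-fold, with a log2 fold change of 2.28 (SE 0.167).

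The groups thus did not overlap for any of the 4 genes, which the choice of the genes fixed, and 49% of all tested genes were higher without overlap as well. A ratio of means of 4 or more was rarer, at 0.794% of tested genes, or 57 genes, and 4.21% had a ratio of 2 or more. Ordered by log2 fold change, Prl3a1 was in place 25, Vmn2r79 in place 27, Tnni3k in place 33 and Elobl in place 38. In bulk samples, more cells that use a gene and more RNA per cell cannot be told apart, and this holds for each of the 4 genes.

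**Figure D1:**
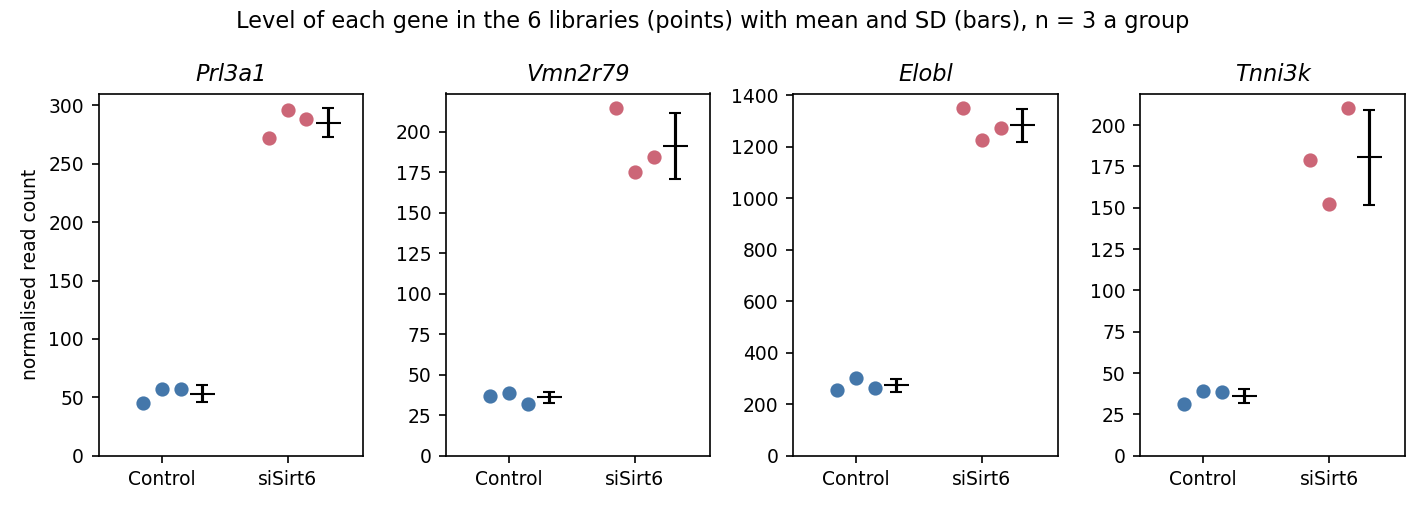
Normalised read count (vertical axis, from 0, with its own scale for each gene) of Prl3a1, Vmn2r79, Elobl and Tnni3k in each of the 3 Control libraries and the 3 siSirt6 libraries (points), with the mean and SD of each group beside them. For all 4 genes each siSirt6 point lies above each Control point, and the spread of the siSirt6 points is widest for Tnni3k relative to its mean.

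None of the 4 was absent from the Control cultures. The recovered reads were 46, 59 and 59 for Prl3a1, 38, 40 and 33 for Vmn2r79, 32, 40 and 40 for Tnni3k, and 260, 311 and 272 for Elobl in the Control libraries. In the siSirt6 libraries they were 275, 287 and 277 for Prl3a1, 217, 170 and 177 for Vmn2r79, 181, 148 and 202 for Tnni3k, and 1366, 1188 and 1221 for Elobl. The genes therefore went from a low level to a higher one, and none went from no reads to some. All 4 passed the filter on low values in both groups.

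Levels between the genes can be set side by side only per length. Per kilobase of exon, the mean normalised read count in Control was 327.8 for Elobl, 29.8 for Prl3a1, 11.02 for Tnni3k and 2.52 for Vmn2r79. In siSirt6 it was 1539 for Elobl, 160.1 for Prl3a1, 54.9 for Tnni3k and 13.4 for Vmn2r79, the same order. Neighbours in this order differed by more than the spread between libraries in both groups. For Vmn2r79 the length includes the long intron-retaining models, and where its reads fall along the gene is not known from these values. By normalised read count, Elobl stood above 25.4% of tested genes in Control and 67.9% in siSirt6, Prl3a1 above 7.29% and 27.3%, Vmn2r79 above 5.14% and 20.8%, and Tnni3k above 5.196% and 19.7%.

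The spread between libraries differed among the 4. Counting alone gives a variance over mean of about 1 for the recovered reads of a group, whose libraries were of similar depth. Prl3a1 stood at 1.03 in Control and 0.148 in siSirt6, which is no more spread than counting gives. For Vmn2r79 the ratio was 0.351 in Control and 3.42 in siSirt6, and for Tnni3k 0.571 and 4.19. Elobl stood at 2.53 and 7.13, above counting in both groups. With 3 libraries such a ratio is itself imprecise.

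**Figure D2:**
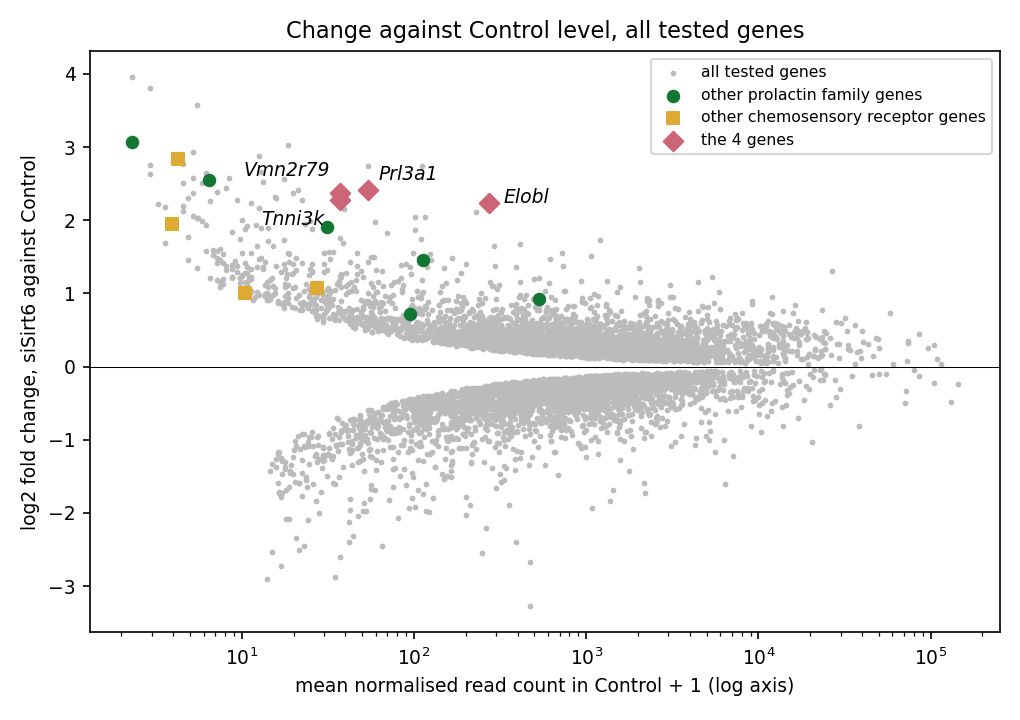
Log2 fold change of siSirt6 against Control (vertical axis) against the mean normalised read count in Control plus 1 (log axis) for all tested genes (grey), the 4 genes (diamonds) and the other tested genes of the prolactin family (circles) and of the chemosensory receptor families (squares). The 4 genes lie between 2.23 and 2.41, and the empty band around 0, wider at low levels, shows that the tables hold few genes with small changes.

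Prl3a1 did not stand alone in its family. Of 27 annotated genes of the prolactin family, 9 were in the tables and 7 were tested, and the 6 tested besides Prl3a1 were all higher in siSirt6, against 50.5% of all tested genes. Their median log2 fold change was 1.68, against 0.08 over all tested genes. Only 4 of the 6 reached the minimum of 10 in all Control libraries, with a median of 1.19; the other 2 passed the filter only through siSirt6 and had to differ. Low genes with small changes were absent from the tables in both directions: among the 862 tested genes with a mean over the 6 libraries under 100, 49.0% were higher and 50.8% lower, and the smallest change in either direction was 0.40 on the log2 scale. Genes of the family outside the tables were not analysed here.

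Prl itself, the pituitary hormone prolactin, stood at 32.2, 29.2 and 29.0 in Control and at 124.6, 119.6 and 103.0 in siSirt6. It rose 3.84-fold, a log2 fold change of 1.90 (SE 0.184, limma, Benjamini-Hochberg adjusted p = 4.71e-11), and its groups did not overlap. Prl2c2, which encodes a proliferin, a placental factor that acts on blood vessels, took the most reads of the family, at 496.7, 556.9 and 532.1 in Control and 955.2, 1032 and 1012 in siSirt6. It rose 1.89-fold (log2 0.92, SE 0.058, limma adjusted p = 9.27e-16). The proliferin gene Prl2c3 stood at 125.9, 119.8 and 89.8 in Control and at 321.4, 288.6 and 308.0 in siSirt6, and rose 2.74-fold (log2 1.46, SE 0.119, limma adjusted p = 8.35e-13). In these 3 genes each siSirt6 library lay above each Control library.

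Prl8a2, a prolactin relative of the decidua, rose least, from 91.7, 102.2 and 87.9 to 137.4, 173.2 and 158.2 (1.66-fold, log2 0.72, SE 0.135, limma adjusted p = 1.34e-05). Its log2 fold change was 0.41 after length and GC correction, in which the trend of change with transcript length and GC over all genes is taken out. Prl8a9 went from 0.976, 6.82 and 8.69 to 31.6, 26.8 and 32.3, and the placental lactogen gene Prl3d2 from 0, 3.89 and 0 to 13.8, 12.4 and 13.5. These are the 2 that passed the filter on low values only through the siSirt6 libraries, and they lend the count nothing. Prl3d3, at 0 in all 3 Control libraries and at 9.89, 5.15 and 12.5 in siSirt6, and Prl2c5, at 1.95, 1.95 and 1.93 in Control and 6.92, 18.6 and 22.9 in siSirt6, were too low to be tested.

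**Figure D3:**
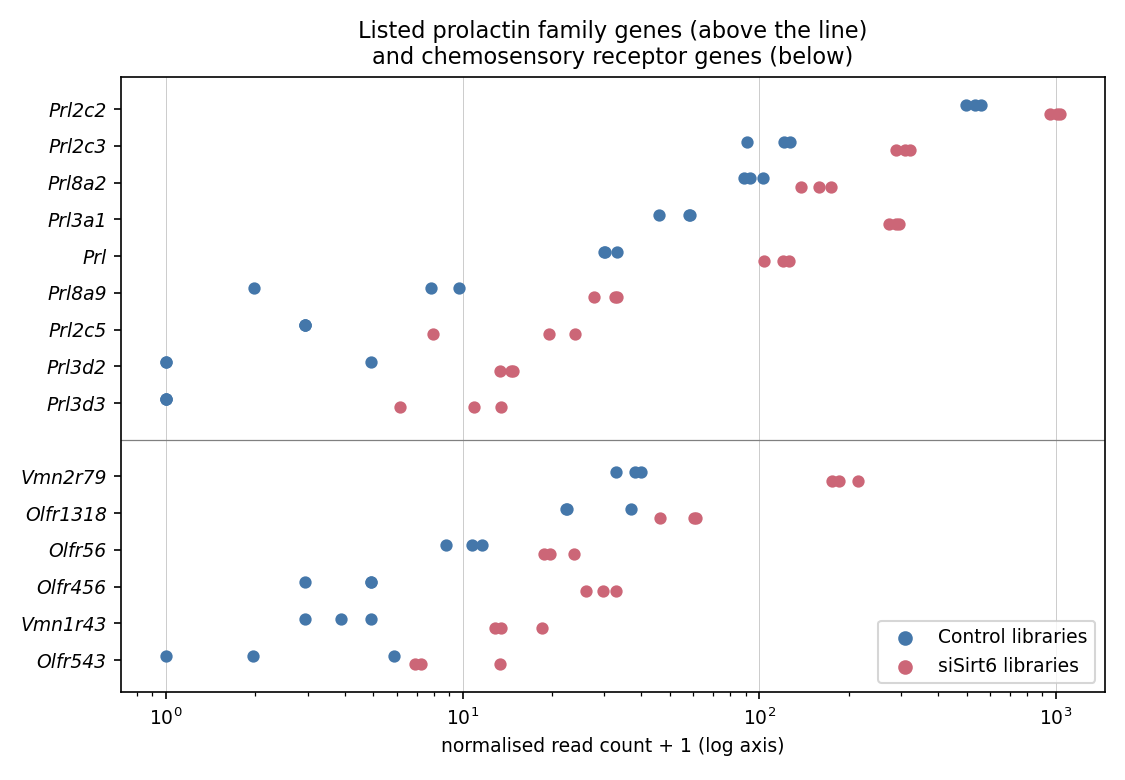
Normalised read count plus 1 (log axis) of the 9 listed prolactin family genes (above the line) and the 6 listed vomeronasal and olfactory receptor genes (below), with a point for each of the 3 Control libraries and the 3 siSirt6 libraries; identical values overlap. In all 15 genes the siSirt6 points lie to the right of the Control points, as in 49% of all tested genes. Prl3a1 and Vmn2r79 were chosen by this difference. Prl3d2, Prl8a9, Olfr456, Olfr56 and Vmn1r43 passed the filter on low values only through siSirt6, and Prl3d3, Prl2c5 and Olfr543 were not tested. In the lowest genes the Control points sit at or near 1, which is a value of 0.

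Of the 9 listed family members 6 lie together. The prolactin cluster spans 1.094 Mb, chr13:27057570-28151611, with 23 family genes, of which 6 were in the tables, and 10 other genes, of which 0 were. Prl2c2, Prl2c3 and Prl2c5 lie elsewhere on chromosome 13, Prl2c2 at chr13:12996125-13005383. Within 1 Mb of Prl3a1, 42 genes are annotated, 7 were in the tables and 6 were tested, all higher, with a median log2 fold change of 1.31. Without Prl3d2 and Prl8a9, which had to differ, 4 were higher with a median of 0.62. Prl8a2 is the nearest of them, 69.0 kb from Prl3a1. Prl3d3 lies 96.8 kb away, Prl3d2 132 kb and Prl 194 kb. The 2 tested genes of the window outside the family were the predicted gene Gm11353 and the ribosomal protein pseudogene Rps18-ps5, at log2 fold changes of 0.40 and 0.51. Both calls were lost after length and GC correction, at -0.083 (limma adjusted p = 0.603) and 0.023 (limma adjusted p = 0.871).

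Similar sequence can carry reads from a relative, so each transcript was cut into windows of 50 bases and matched to all other annotated genes. None of the 1733 windows of Prl3a1 occurred in another gene, and its closest relative, Prl3b1, was 65.8% identical over 433 aligned bases of the 684-base coding sequence. Prl, Prl8a2 and Prl8a9 shared no window either. Prl2c2 shared 83.3% of its windows with other genes, Prl2c3 59.99%, Prl2c5 35.1%, Prl3d2 68.2% and Prl3d3 67.5%, so the values of these 5 are uncertain as single genes. Prl3a1 and Prl were thus measured on sequence that no other annotated gene holds.

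The broader list of trophoblast and placental genes moved less evenly, set beside 50.5% higher and 49.3% lower of all tested genes. Of its 56 genes 15 were tested, 11 higher, of which Tfap2c passed the filter only through siSirt6, and 4 lower, with a median log2 fold change of 0.26, and 8 higher and 4 lower after length and GC correction. Keratin 7 (Krt7), an epithelial keratin, rose 3.32-fold, from 108.4 ± 24.3 to 360.5 ± 44.9 (SD, n = 3). Plac8 rose 1.83-fold and Ly6e 1.27-fold, while the growth factor Bmp4 fell to 0.703 of Control.

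Vmn2r79 was the only V2R gene in the tables, of 239 annotated with pseudogenes and 123 coding. The tables also held 1 of 328 V1R vomeronasal receptor genes and 4 of 1407 olfactory receptor genes. Of these 5 genes 4 were tested and all 4 were higher, but 3 of them, Olfr456, Olfr56 and Vmn1r43, passed the filter on low values only through siSirt6 and had to differ, so the count is no result about the receptors. Olfr1318 stood at 21.5, 36.0 and 21.2 in Control and at 59.3, 45.4 and 60.4 in siSirt6, and rose 2.10-fold (log2 1.07, limma adjusted p = 1.79e-04). Olfr56 went from 9.76, 7.79 and 10.6 to 17.8, 22.7 and 18.7 (log2 1.00, limma adjusted p = 0.00934), a call lost with adjustment over all annotated genes (limma adjusted p = 0.0723) and with DESeq2 (adjusted p = 0.067).

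The other receptor genes were near the floor in Control. Olfr456 went from 3.90, 3.89 and 1.93 to 28.7, 31.96 and 25.0, and Vmn1r43 from 1.95, 3.89 and 2.90 to 11.9, 17.5 and 12.5. Olfr543, at 0, 4.87 and 0.966 in Control and 5.93, 12.4 and 6.24 in siSirt6, was not tested.

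Vmn2r79 shares more sequence with its relatives than Prl3a1 does. Of its 14365 windows of 50 bases, 13.4% occurred in other genes, 245 of them, with 763 windows in Vmn2r78 and 252 in Vmn2r77. With windows of 100 bases the share was 1.31%. The coding sequence of 2556 bases was 96.1% identical to Vmn2r78 over 2552 bases, with 100 mismatches, and 92.7% identical to Vmn2r77, and 251 relatives were found in all. Reads over the coding part can therefore fit several receptors. Vmn2r78 was not in the tables and is not analysed here.

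The wider equipment of vomeronasal sensory neurons moved in both directions, as did all tested genes (50.5% higher and 49.3% lower). Of a list of 28 genes 7 were tested, 4 higher and 3 lower, with a median log2 fold change of 0.18, and 3 and 3 with a median of -0.03 after length and GC correction. The largest rises were those of non-classical MHC class I genes that vomeronasal neurons use together with V2R receptors, H2-M1, from 52.8 ± 5.07 to 358.1 ± 25.2 (SD, n = 3), 6.79-fold, and H2-M9, from 227.7 ± 14.4 to 984.7 ± 51.9, 4.33-fold. The neural adhesion molecule Ncam1 rose 2.04-fold and the homeobox gene Meis2 fell to 0.695 of Control. The G protein subunit gene Gnao1 of the same list fell to 0.791 of Control and Ebf2 to 0.680. Both stayed lower after length and GC correction. Around Vmn2r79 itself, 43 genes are annotated within 1 Mb and 2 were in the tables. The NADPH oxidase gene Nox4, 201 kb away, rose 1.33-fold (log2 0.41, SE 0.078, limma adjusted p = 1.55e-05), and the peptidase gene Folh1, 220 kb away, fell to 0.805 (log2 -0.31, SE 0.033, limma adjusted p = 2.76e-10).

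The tables held a pseudogene copy of Elobl and other genes close to it. The pseudogene 2210409E12Rik (ENSMUSG00000081766, chr11:88972657-88973002, plus strand, a transcribed processed pseudogene), whose sequence is set beside Elobl above, lies 5.73 kb from it. It stood at 15.6, 11.7 and 7.73 in Control and at 86.0, 82.5 and 100.9 in siSirt6, without overlap. It rose 7.69-fold, a log2 fold change of 2.88 (SE 0.259, limma adjusted p = 7.93e-12). With 1 Control library under 10, it passed the filter on low values only through siSirt6 and so had to differ.

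Coil, which encodes the Cajal body protein coilin, lies 3.32 kb from Elobl on the plus strand and contains the pseudogene. It stood at 218.6, 223.9 and 239.5 in Control and 351.0, 354.6 and 400.7 in siSirt6, and rose 1.62-fold (log2 0.69, SE 0.088, limma adjusted p = 1.81e-08). On the other side, the serine carboxypeptidase gene Scpep1, 9.19 kb away, rose 1.49-fold, from 13079 ± 66.7 to 19536 ± 91.6 (SD, n = 3, log2 0.58). Akap1, an anchor of protein kinase A on mitochondria, 100 kb away, was 1.14-fold higher (log2 0.19), a call lost with listed totals (0.07) and without siSirt6 replicate 1 (0.12), and with edgeR (0.10) and DESeq2 (0.09). Within 500 kb of Elobl 5 genes were tested, 4 higher and 1 lower, and within 1 Mb 7 were, 4 higher and 3 lower, a share near that of all tested genes. Without the pseudogene 3 were higher and 3 lower, so the count is no result about the genes around Elobl.

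**Figure D4:**
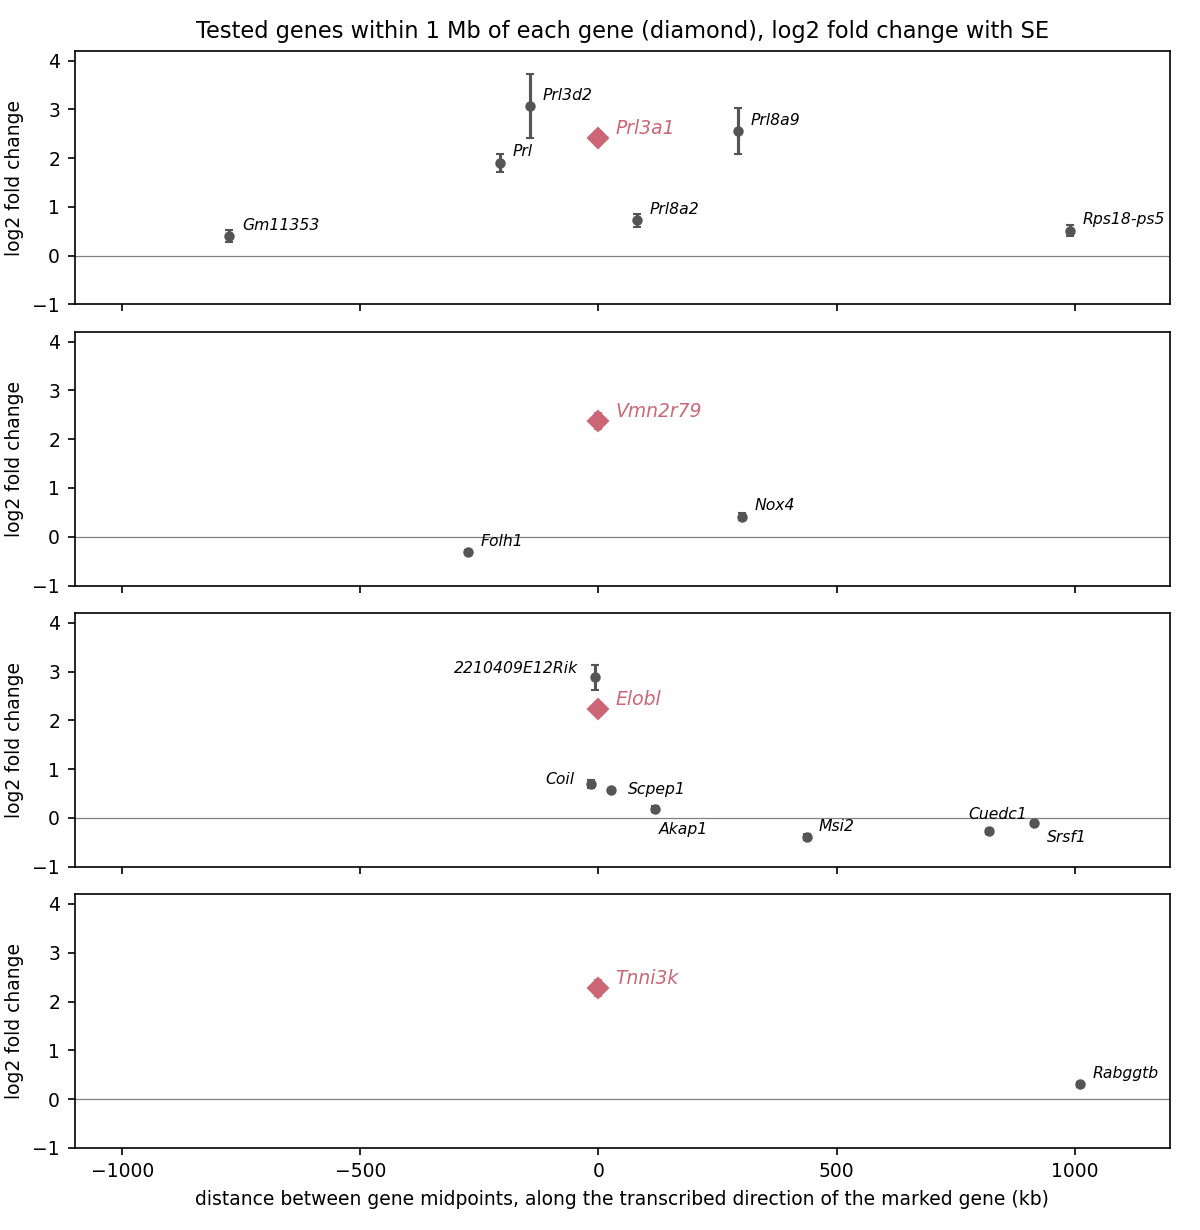
Log2 fold change with its standard error (vertical axis) of each tested gene within 1 Mb of Prl3a1, Vmn2r79, Elobl and Tnni3k (diamonds), against the distance between gene midpoints in kb along the transcribed direction. Around Prl3a1 all 6 neighbours lie above 0, but Prl3d2 and Prl8a9 passed the filter on low values only through siSirt6. The calls of Gm11353 and Rps18-ps5 there were lost after length and GC correction. Of all tested genes 50.5% were higher. Around Elobl the pseudogene 2210409E12Rik, which also passed only through siSirt6, lies at 2.88, above Elobl at 2.23. Genes farther from Elobl lie near or below 0, and around Vmn2r79 and Tnni3k few genes were in the tables.

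Reads of Elobl and its neighbours overlap in part. Of 794 windows of 50 bases of Elobl, 96, or 12.1%, occurred in other genes, 83 of them in Coil and 76 in 2210409E12Rik, and with windows of 100 bases the share was 1.75%. No window of Elobl occurred in Elob. Over its coding sequence of 486 bases, Elobl was 90.1% identical to the pseudogene over 332 bases, 94.2% identical to a Coil transcript over 190 bases and 78.8% identical to Elob over 297 bases. The pseudogene shared 54.2% of its 297 windows with other genes, 148 of them with Coil, so its value is uncertain as a single gene. The mean normalised read count in siSirt6, which is not per length, was 1282 for Elobl, 368.8 for Coil and 89.8 for the pseudogene.

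**Figure D5:**
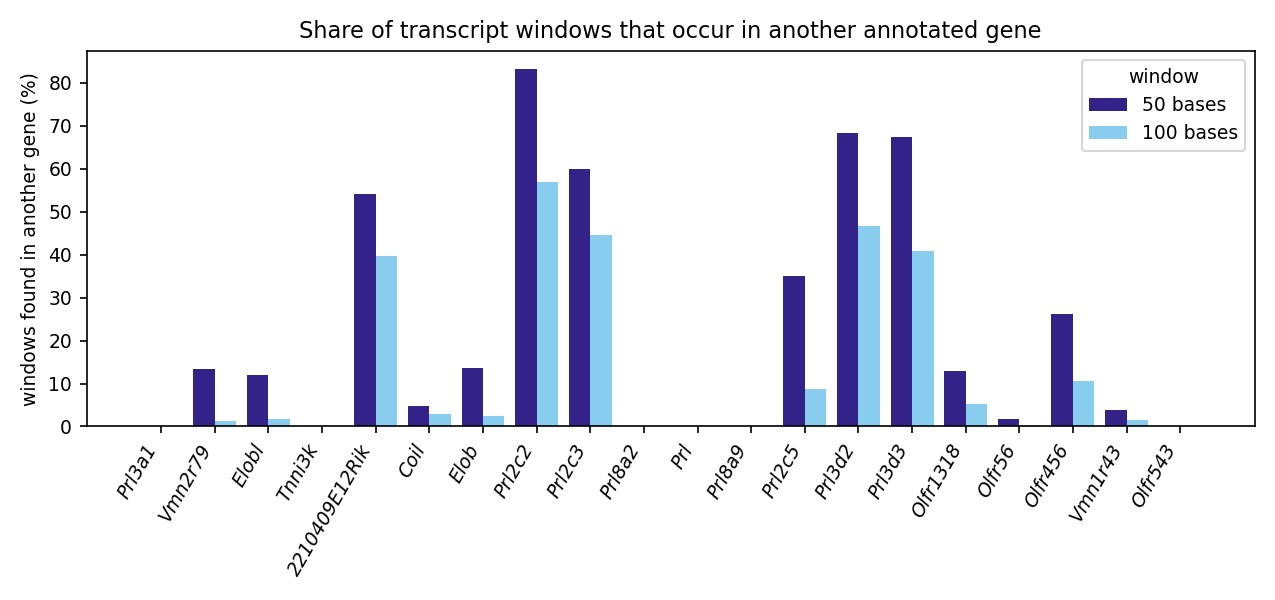
Share of the distinct windows of 50 or 100 bases of each gene's annotated transcripts that occur in another annotated gene on the same strand (percent, from 0), for the 4 genes, the Elobl relatives and the listed family members; a gene without a bar has 0%. Prl3a1 and Tnni3k have 0%, Vmn2r79 and Elobl 13.4% and 12.1% with 50 bases, and Prl2c2 83.3%.

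The canonical gene Elob, which codes for elongin B, went from 5547 ± 174 to 7320 ± 345 (SD, n = 3), 1.32-fold, and its log2 fold change of 0.40 became -0.056 after length and GC correction. Of 15 tested genes of the elongin B and C complexes 8 were higher and 7 lower, a split near that of all tested genes. Their median log2 fold change was 0.13. After length and GC correction 5 were higher and 2 lower. Elongin C (Eloc) rose 1.22-fold and Socs5, which encodes a suppressor of cytokine signalling that binds elongins, 1.61-fold, while the substrate receptor gene Appbp2 stood at 0.772 of Control, a call lost after length and GC correction (log2 -0.05). Elobl moved about as far under that correction as Elob did, to a log2 fold change of 1.82.

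Tnni3k had no close relative by nucleotide sequence in this search and few neighbours in the tables. None of its 3338 windows of 50 bases occurred in another gene, and no relative of its coding sequence passed the search. The gene that overlaps its span, on the other strand, shares no exon base with it. Of 14 genes annotated within 500 kb, 0 were in the tables, and within 1 Mb 1 of 37 was, Rabggtb, which encodes a subunit of the enzyme that attaches lipid anchors to Rab proteins. It lies 873 kb away and rose 1.23-fold (log2 0.30, SE 0.048, limma adjusted p = 1.18e-06).

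Heart muscle genes moved in both directions, as did all tested genes, of which 50.5% were higher and 49.3% lower. Of 45 cardiac muscle genes 12 were tested, 5 higher and 7 lower, with a median log2 fold change of -0.25. After length and GC correction 5 were higher and 3 lower, with a median of 0.02. Ankrd1, a stress-responsive ankyrin repeat gene, rose 2.13-fold, from 1562 ± 23.3 to 3324 ± 113.6 (SD, n = 3), and the gap junction gene Gja1 fell to 0.537 of Control. Fhl2 stood at 1.26-fold and the calcium pump gene Atp2a2 at 0.820, both calls lost after length and GC correction. Tnni3, the troponin that the TNNI3K protein binds, was not in the tables and is not analysed here.

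Kinases most like TNNI3K, of the MAP3K and receptor-interacting groups, moved in both directions, as did all tested genes (50.5% higher and 49.3% lower). Of 27 on the list 14 were tested, 5 higher and 9 lower, with a median log2 fold change of -0.29, and 6 higher and 7 lower with a median of -0.09 after length and GC correction. The necroptosis kinase gene Ripk3 rose 1.44-fold, from 2287 ± 47.7 to 3296 ± 112.0 (SD, n = 3). Map3k3 fell to 0.662 and the scaffold gene Ksr1 to 0.584. Map3k2 stood at 0.748, a call lost after length and GC correction (log2 -0.02).

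Genes whose profile over the 6 libraries was most like each of the 4 were found by the Euclidean distance between gene-centred log2 profiles, a description over 6 libraries that share the group difference. Nearest to Prl3a1 was Il1rl1, the interleukin-33 receptor, at a distance of 0.129, then Elobl at 0.358 and the keratin gene Krt14 at 0.373. For Vmn2r79 the nearest were Elobl at 0.288, Krt14 at 0.295 and Ctxn1, which encodes a neuronal membrane protein, at 0.429. For Elobl they were Krt14 at 0.184, the regeneration-related gene Nrep at 0.272 and Vmn2r79 at 0.288. For Tnni3k they were Krt14 at 0.310, Elobl at 0.360 and the Notch ligand gene Dll4 at 0.388. The other 3 of the 4 genes were among the 9 nearest in each case. The 4 genes were chosen by this same group difference, so their nearness is no result about them.

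Those profile neighbours ran from low to moderate levels. Il1rl1 went from 20.1 ± 2.35 to 111.2 ± 6.41 (SD, n = 3), Nrep from 115.6 ± 9.68 to 477.9 ± 21.4 and Ctxn1 from 100.8 ± 11.2 to 418.8 ± 60.2. Dll4 went from 11.7 ± 1.62 to 56.7 ± 13.6. Krt14, at 8.42 ± 0.533 in Control and 44.8 ± 4.62 in siSirt6, passed the filter only through the siSirt6 libraries.

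Markers of smooth muscle and of other cell types are counted here beside all tested genes, of which 50.5% were higher and 49.3% lower. The cultures carried smooth muscle markers: 10 of 12 were in the tables, 9 higher and 1 lower, and their summed level was 94971 to 95872 in Control and 147465 to 149770 in siSirt6, while Tagln stood at 178.7 ± 32.3 in Control, and Myocd and Des were not in the tables. Of 12 endothelial markers 10 were tested and all 10 were higher, of which Cldn5 passed the filter only through siSirt6, with summed levels of 2975 to 3217 and 4471 to 4621 and none at 0 in any library. Of 11 markers of Schwann cells and neurons 6 were tested, 3 higher, of which Stmn2 passed the filter only through siSirt6, and 3 lower, with sums of 2626 to 2704 and 5175 to 5481 over the 7 listed, where Snap25 was at 0 in 2 Control libraries. Tubb3 rose 2.26-fold and Uchl1 2.59-fold in that list, while S100b fell to 0.444.

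Of 12 macrophage and leukocyte markers 3 were tested and all 3 were higher, with sums of 1777 to 1822 and 1978 to 2018, but C1qb and Lyz2 reversed after length and GC correction (log2 -0.039 and -0.19) and the calls of all 3 were lost with adjustment over all annotated genes. Fibroblast markers fell in 6 and rose in 3 of 9 tested cases, with sums of 91799 to 92745 and 76166 to 77481. Among adipocyte markers 3 of 6 were higher and 3 lower, with sums of 4043 to 4224 and 3519 to 3648. The part of other cell types in the rises of Prl3a1, Vmn2r79, Elobl and Tnni3k was not tested.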

How the data were processed

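The deposited values of the 6 libraries are a signal for each of 7384 genes, namely reads divided by 1 factor per library: 100% of values came out whole within 0.001 reads. The source of the factors is not stated. The mRNA libraries were stranded, per the labels' protocols. Build mm10, HTSeq, HISAT2, Trimmomatic and Cufflinks appear, without versions, in the submitters' processing notes. The 4 genes, the gene lists and the tests were chosen with earlier results of these data known.

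The 7179 genes that reached 10 in 3 or more libraries were fitted with limma 3.58.1 (R 4.3.3, 2-sided, trended and robust variances) on log2(value + 1), which understates the change of low genes. Benjamini-Hochberg adjustment ran over all tested genes, with a threshold of 0.05. edgeR 4.0.16 and DESeq2 1.42.0 were alternatives on the recovered reads of 5 libraries, since an automatic check of the unit did not accept siSirt6 replicate 1. Positions and transcripts came from GENCODE vM21 (GRCm38, the same build as mm10), where 7332 identifiers were found. Relatives were aligned with blastn 2.17.0. Fits were tested on simulated data. Genes named are the 4, Sirt6, for each of the 4 its 3 nearest profiles, its up to 4 nearest listed neighbours and up to 2 genes sharing most windows, up to 6 genes of each receptor or hormone family, and the 4 smallest p of each other list. Other genes named, such as Prl2c5, Gm11353, Rps18-ps5, Prl3b1, Gnao1, Ebf2, Tnni3, Tagln and Snap25, were chosen after their values were seen. Tables of other genes were not analysed here.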

Additional observations from a re-analysis of the deposited data

How the results depend on the processing

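Each of the 4 genes stayed higher in siSirt6 under every alternative run. Leaving out 1 library gave log2 fold changes of 2.30 to 2.47 for Prl3a1, 2.29 to 2.44 for Vmn2r79, 2.18 to 2.31 for Elobl and 2.16 to 2.39 for Tnni3k. Correction for transcript length and GC gave 2.18 for Prl3a1, 2.78 for Vmn2r79 and 1.82 for Elobl, and scaling to listed totals 2.11 for Elobl. The length used was that of the longest transcript, for Vmn2r79 10586 bases against a coding sequence of 2556, so its corrected value is uncertain. With a filter of a mean of 5 CPM of the listed total, 3 prolactin family genes were higher in place of 6 and 0 receptor genes in place of 4, because fewer were tested. Windows of 100 bases shared 1.31% for Vmn2r79 and 1.75% for Elobl, in place of 13.4% and 12.1%. Over all genes, 3624 were higher and 3542 lower. The counts were 3540 to 3577 and 3445 to 3474 without 1 library, 2710 and 3567 with listed totals, which moved the median log2 fold change from 0.08 to -0.03, 2611 and 2565 after length and GC correction, and 3297 and 3188 with adjustment over all annotated genes, which was added after the data were seen. Same-numbered libraries did not deviate together (correlations -0.0195, 0.0268 and -8e-04), so they share only a number. The replicate block gave 3629 higher and 3540 lower. With each replicate number present in both groups, this block cannot change a log2 fold change, so the 4 genes kept theirs by design. Of 1176 values of 70 other named genes, 1150 kept direction and call, 21 lost the call and 5 reversed, Elob (-0.056), C1qb (-0.039), Lyz2 (-0.19) and Ly6a (-0.067) after length and GC correction and Lyz2 (-0.0097) with listed totals; the cause was not tested. The whole depth of the libraries is unknown.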

Other observations

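Genes of a sirtuin and heterochromatin list were mostly lower in siSirt6, fewer of them after length and GC correction. Of its 35 genes 21 were tested, 4 higher and 17 lower, against 50.5% higher and 49.3% lower of all tested genes. The 17 include Sirt6 itself, the knockdown target. Their list had a median log2 fold change of -0.24. After length and GC correction 3 were higher and 8 lower, with a median of -0.08. Cbx3 and Dnmt3a are among those that stayed lower. Cbx3, which encodes the heterochromatin protein HP1 gamma, stood at 693.8, 642.6 and 653.8 in Control and at 390.6, 394.8 and 393.4 in siSirt6, a fall to 0.592. The DNA methyltransferase gene Dnmt3a fell to 0.590 of Control, from 457.2 ± 70.3 to 269.9 ± 12.1 (SD, n = 3). Zfp57, which protects methylation at imprinted genes, rose 1.36-fold. Of 47 germline genes 2 were in the tables and 1 was tested: Kit, a receptor that vascular and other somatic cells also use, rose 2.79-fold (log2 1.36, SE 0.320, limma adjusted p = 2.63e-04), and Hormad2 was at 4.88, 7.79 and 0 in Control and 0, 0 and 1.04 in siSirt6.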
